A study of Mus musculus with 9 samples.

Results

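The 9 genes described here encode proteins of the connective tissue matrix. They are the collagen chains Col1a1, Col1a2, Col3a1, Col5a2 and Col6a1, the small leucine-rich proteoglycans decorin (Dcn) and lumican (Lum), and the matricellular proteins Sparc and periostin (Postn). They were chosen by name, out of 27573 genes that could be named on the array, and 17 probes measured them. A probe counted as detected on an array when its signal in the sample channel was well above local background by the scanner software's own flag. A probe printed in several spots was judged by the average of the flag over its spots. Of the 17 probes, 8 were detected on at least 3 of the 9 arrays and were tested, and these 8 belonged to 6 of the 9 genes. Col5a2, Lum and Postn had no tested probe.

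Samples came from 3 female mice of the Balb/c athymic strain, which lack a thymus, numbered 832, 833 and 834; their age is not given in the sources used here. Each mouse carried a subcutaneous tumour grown from Hepa1-6, a mouse hepatoma cell line. Each gave whole blood before inoculation (day 0 blood), whole blood 10 days after it (day 10 blood) and, also at day 10, a fraction of the ground tumour enriched for inflammatory cells that had entered it (the TIC fraction), so that each of the 3 groups held 3 arrays. The TIC samples carry a source label of blood, while their titles and tissue labels say tumour-infiltrating cells, and they are grouped by the latter. No untreated mouse was sampled at day 10, so the tumour and the passage of time cannot be told apart in blood. Sample RNA was labelled with Cy5 and hybridised against a Cy3-labelled reference, RNA from the blood of a female C57Bl/6 mouse that was not treated, in the same dye orientation on all 9 arrays, so that dye and sample cannot be told apart within a single ratio. The RNA of the TIC fraction and of blood was isolated with different kits, and the comparison of tissue cannot be told apart from that of the kit.

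Fibrillar collagens are built from chains that fold into a triple helix, are trimmed outside the cell and assemble into fibrils. Decorin and lumican coat these fibrils, and Sparc and periostin bind collagen and modulate how cells attach to it. In tumours these genes are known as products of fibroblasts and pericytes, and platelets are known to carry Sparc protein; leucocytes and red cells are not known as a main source of fibrillar collagen.

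The depth of the arrays differed by group. In Cy5, 52% ± 3.5 of spots were well above background on the TIC arrays, against 31.2% ± 6.39 on the day 0 and 17.7% ± 3.41 on the day 10 blood arrays (mean and SD, n = 3 each). Array pairs within a blood group correlated at 0.789 to 0.874 in log2 ratio of Cy5 to Cy3 over the tested probes. The TIC arrays of mice 832 and 834 correlated at 0.989, and that of mouse 833 stood apart at 0.881 and 0.893. The TIC array of mouse 832 was alone on slide 1, slide 2 held the day 0 arrays of mice 832 and 833 and the TIC arrays of mice 833 and 834, and slide 3 held the remaining 4 blood arrays. The TIC fraction and day 10 blood shared no slide.

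The TIC fraction was checked against markers of the cells it could hold. All 8 macrophage markers were detected on every TIC array, against 5 on every day 0 and 2 on every day 10 blood array. Of 10 fibroblast and pericyte markers, 6 were detected on every TIC array and only Pdpn on none, against 3 detected on every array and 7 on none (Pdgfra, Pdgfrb, Fap, Cspg4, Des, Pdpn and Rgs5) in each blood group. Of 8 hepatoma and hepatocyte markers, 7 were detected on every TIC array and 1 on every array of each blood group. Of 7 endothelial markers, 3 were detected on every TIC array, and Cdh5, Tek and Tie1 on none. In blood 1 was detected on every day 0 array and 0 on every day 10 array. Of 10 platelet markers 9 had values on all arrays; these 9 were detected on every blood array, and 5 on every TIC array, with Itga2b and Gp1ba on none. All 6 erythroid markers were detected on every blood array and 4 on every TIC array. Of 8 skin, muscle and fat markers, 3 were detected on every TIC array, and Myh4 and Plin1 on none. In blood 2 of them were detected on every day 0 array and 1 on every day 10 array.

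Promoter sequences are shown for the members that differed between the TIC fraction and blood and for which the RefSeq table (GRCm38.p6) held a start site; it held 6 windows for 5 of the 9 members. Each line gives the 250 bases before the annotated start, 5′ to 3′ in the direction of transcription. Capitals mark any match, on either strand, to the TATA box (TATAAA), the CCAAT box (CCAAT), the GC box (GGGCGG) or the AP-1 site (TGANTCA).
Sparc, chr11:55420081-55420330, minus strand: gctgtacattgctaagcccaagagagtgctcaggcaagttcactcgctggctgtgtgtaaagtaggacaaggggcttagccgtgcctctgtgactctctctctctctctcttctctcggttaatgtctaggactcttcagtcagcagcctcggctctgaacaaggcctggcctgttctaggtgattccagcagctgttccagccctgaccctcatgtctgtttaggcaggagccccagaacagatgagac
Col1a2, chr6:4505368-4505617, plus strand: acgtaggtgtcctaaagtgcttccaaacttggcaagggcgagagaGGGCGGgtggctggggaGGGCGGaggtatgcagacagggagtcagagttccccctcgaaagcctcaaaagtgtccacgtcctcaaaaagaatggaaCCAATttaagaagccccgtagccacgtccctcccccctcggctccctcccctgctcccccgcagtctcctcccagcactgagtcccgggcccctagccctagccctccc
Col3a1, chr1:45311288-45311537, plus strand: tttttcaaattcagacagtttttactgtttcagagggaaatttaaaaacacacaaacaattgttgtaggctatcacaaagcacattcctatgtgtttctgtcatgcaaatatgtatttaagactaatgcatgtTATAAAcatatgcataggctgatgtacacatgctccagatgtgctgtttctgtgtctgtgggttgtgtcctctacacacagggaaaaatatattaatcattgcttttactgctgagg
The Sparc window held none of the 4 motifs. The Col1a2 window held 1 CCAAT and 2 GGGCGG matches, and the Col3a1 window 1 TATAAA match. Of 32851 windows in the table, 12.4% held TATAAA, 33.8% CCAAT, 32.7% GGGCGG and 6.75% TGANTCA.

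In the untransformed sample channel, the matrix genes were near the local background in blood and above it in the tumour fraction. Dcn, Sparc, Col1a1, Col1a2 and Col3a1 each had a probe whose Cy5 spot intensity on every TIC array exceeded that on every blood array. These intensities are as scanned, with no correction for the greater brightness of the TIC arrays. The same separation held for Col5a2, which was detected on no array, and the share of all probes showing it was not counted. In bulk RNA, fewer cells of a type and less RNA per cell cannot be told apart.

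Dcn had the largest rise of the 8 tested member probes. Its probe A_51_P334104 (mm8 chr10:96947287-96947346, plus strand) gave Cy5 intensities of 54.9, 55.5 and 47.3 in the day 0 blood of mice 832, 833 and 834. The day 10 blood of the same mice gave 45.7, 47.6 and 45.4. The TIC fraction gave 139737 in mouse 832, 17815 in mouse 833 and 60624 in mouse 834. All 6 blood values lay near background, and the TIC values lay far above them with no overlap. The scanned TIC values spread widely among the 3 mice. After quantile normalisation of Cy5, which puts the arrays on a common distribution, the TIC fraction stood at 12.72 ± 0.26 against 5.9 ± 0.13 in day 10 blood and 6.03 ± 0.16 in day 0 blood (log2 level, SD, n = 3 each).

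**Figure D1:**
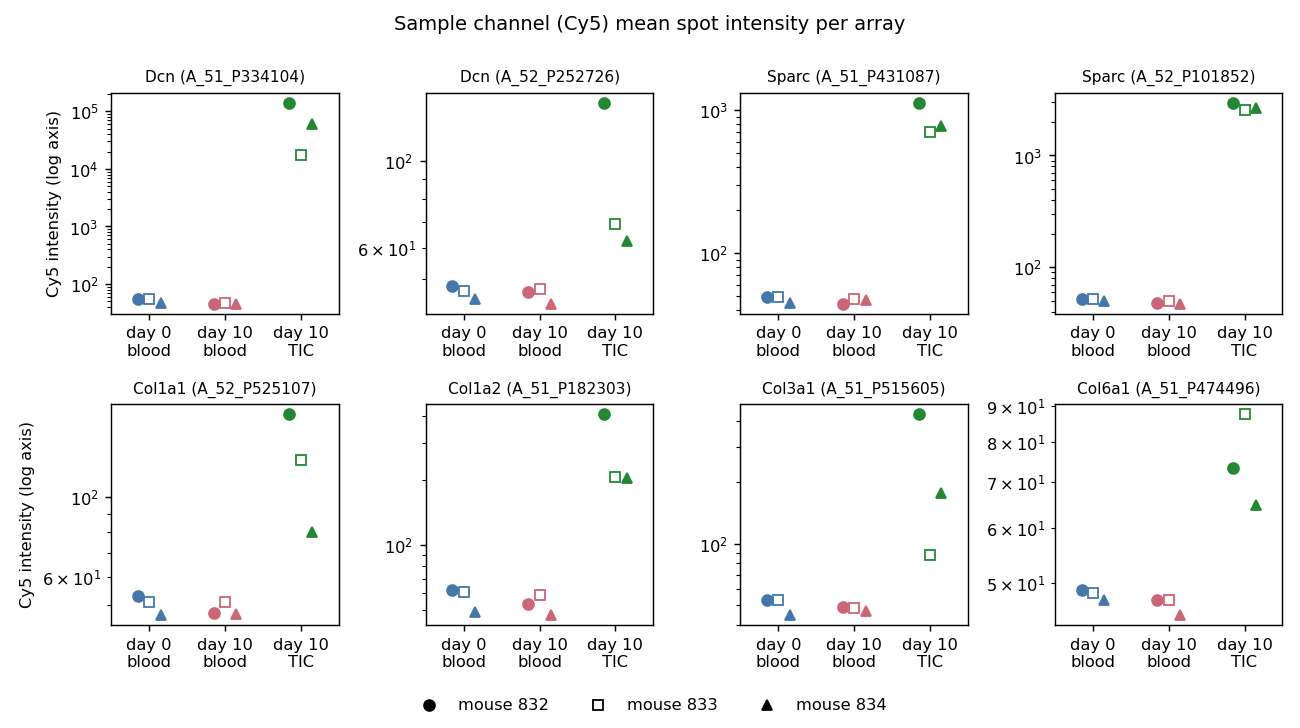
Cy5 mean spot intensity (log axis, arbitrary scanner units, not normalised between arrays) of the 8 tested member probes in day 0 blood, day 10 blood and the day 10 TIC fraction; each symbol is 1 array and its shape the mouse. On all 8 probes the 3 TIC arrays lie above the 6 blood arrays, from 17815 to 139737 against 45.4 to 55.5 for Dcn probe A_51_P334104 and from 64.9 to 87.7 against 44.9 to 48.9 for Col6a1. The TIC arrays were brighter as a whole, and except for Col1a2 these probes passed the filter only through them. Col5a2, detected on no array, was separated in the same way, and the share over all probes was not counted.

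The second Dcn probe, A_52_P252726 (mm8 chr10:96910401-96910460), lies 36886 bases upstream of the first and was detected on the TIC arrays only, whereas the first was also above background on 1 day 0 array. It gave 141, 69 and 62.6 on the TIC arrays of mice 832, 833 and 834, against 43.1 to 48 in blood. Both Dcn probes were thus higher on the TIC arrays than on any blood array, but the TIC-to-blood ratio of mean raw intensity was 1470 for the first and 1.99 for the second. In the files the second probe carries the accession of a different transcript record.

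Sparc, also called osteonectin, was measured by 2 probes that moved the same way. Probe A_52_P101852 (mm8 chr11:55239370-55242027, minus strand, a span of 2658 bases in the file for a probe of 60 bases) gave 2946, 2560 and 2685 on the TIC arrays of mice 832, 833 and 834. Its blood intensities were 52.2, 52.2 and 49.6 at day 0 and 47.5, 49.5 and 47.1 at day 10. Probe A_51_P431087 (mm8 chr11:55237934-55237993) gave 1121, 702 and 778 on the TIC arrays, against 44.2 to 49.5 in blood. No TIC value overlapped a blood value on either probe. After quantile normalisation the TIC arrays of mice 832, 833 and 834 stood at 8.07, 9.68 and 8.65 on A_52_P101852 (log2), so the spread among mice depended on the scale.

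Of the type I and III collagens, the chains of the main fibrils of skin and stroma, only the probe nearest the 3′ end of each gene was detected on all 3 TIC arrays. Col1a2 probe A_51_P182303 (mm8 chr6:4490619-4490678, plus strand) gave 406, 207 and 206 on the TIC arrays of mice 832, 833 and 834. Its blood values were 62.2, 61.1 and 49.3 at day 0 and 53.6, 58.9 and 47.6 at day 10, and it was detected on 2 of 3 arrays in each blood group. It was the only tested member probe detected on more than 1 blood array. Col3a1 probe A_51_P515605 (mm8 chr1:45293290-45293349, plus strand) gave 433, 88.1 and 177 on the TIC arrays against 44.6 to 53 in blood. Col1a1 probe A_52_P525107 (mm8 chr11:94767851-94767910, plus strand), printed in 10 spots per array, gave 170, 127 and 79.8 on the TIC arrays against 47 to 53.2 in blood. For all 3 genes the TIC array of mouse 832 was the highest.

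Col6a1, a chain of the beaded filaments around cells, was dimmer. Its probe A_51_P474496 (mm8 chr10:76152870-76152929, minus strand) gave 73.4, 87.7 and 64.9 on the TIC arrays of mice 832, 833 and 834 against 44.9 to 48.9 in blood. It was detected on all 3 TIC arrays and on no blood array.

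The other 9 member probes did not pass the filter. Lum (A_51_P167527) was detected on 2 of 3 TIC arrays, with intensities of 92.2, 49.8 and 62 against 44.7 to 51.7 in blood, so that mouse 833 overlapped blood. Postn probe A_51_P489192 was detected on 1 TIC array, with 68.6, 55.1 and 56.4 against 45.4 to 50.7 in blood, and its other probe, A_51_P469817, on none. Col5a2 (A_51_P247883), the partner chain in fibrils of type V, was detected on no array, with 51.5 to 59.8 in the TIC fraction and 43.5 to 49.1 in blood. The 2 further Col1a1 probes were detected on 2 and 1 TIC arrays (A_51_P377094 and A_52_P658611), and the second probe of Col1a2 and the 2 further probes of Col3a1 on none. These upstream probes lay 1023 and 13798 bases (Col1a1), 26846 bases (Col1a2) and 24343 and 27192 bases (Col3a1) from the 3′-most probe of their gene. No annotation of mm8 was used here, so exons were not assigned to probes.

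The reference channel was not a flat baseline for these genes. Col1a1, Col1a2 and Col3a1 were well above background in the Cy3-labelled C57Bl/6 blood on all 9 arrays, at 210 to 243, 386 to 497 and 177 to 217. These reference values exceeded the Cy5 value of every athymic blood array on the same spots, and for Col1a1 and Col1a2 that of every TIC array too. Strain, animal and dye cannot be told apart in that difference. For Dcn probe A_51_P334104 the Cy3 signal averaged 100.8 in day 0 and 96.7 in day 10 blood but was 913.5, 743 and 1477 on the TIC arrays, although the same reference RNA was used; the ratio of means was 10.6. The Sparc probe A_52_P101852 gave a Cy3 ratio of 1.65, and the remaining 15 member probes 0.989 to 1.11. Over the whole array, 6 probes exceeded 10000 in Cy5 on all TIC arrays while staying under 100 on all blood arrays, and their Cy3 ratio was 2.11 to 29.6 with a median of 9. A dimmer set of 6340 probes, with a lowest TIC value of 100 to 1000 and the same limit of 100 in blood, had a median Cy3 ratio of 1.07. The part of this Cy3 rise in the Dcn ratio was not tested.

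The log2 ratio of Cy5 to Cy3 and Cy5 alone were then compared between groups with limma, a linear model fitted to all 19995 tested probes, with Benjamini-Hochberg adjustment and a threshold of 0.05. Except for Col1a2, the tested probes were detected on all 3 TIC arrays and on at most 1 blood array, and so passed the filter only through the group in which they were bright. Where no array of a group had a probe well above background, a bound on the fold is given on 1 scale, Cy5 after loess and Aquantile normalisation (called Aquantile Cy5). It sets the mean of the bright group against, for each dim array, the higher of the lowest signal called above background and the probe's own signal; for Dcn A_51_P334104 and both Sparc probes the own signal was the higher against day 10 blood. A bound holds for that scale alone, and the fold by ratio or by quantile-normalised Cy5 can be smaller.

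Dcn probe A_51_P334104 and both Sparc probes were higher in the TIC fraction than in day 10 blood on both measures. These probes passed the filter only through the TIC arrays, so their p-values describe the difference and are not independent support for it. The log2 ratio of Dcn probe A_51_P334104 was 3.01, 3.35 and 2.62 in the TIC fraction of mice 832, 833 and 834. In day 10 blood it was -0.15, -0.2 and -0.29. The difference was 3.21 ± 0.17 (SE, limma adjusted p = 2.161e-06), higher in all 3 mice. In Aquantile Cy5 Dcn was at least 108.3-fold higher. The Cy5 difference was 6.82 ± 0.16 (limma adjusted p = 1.028e-08). With slide as a block the ratio difference was 3.33 and the Cy5 difference 6.45.

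The Sparc probes rose by 1.36 ± 0.22 (A_52_P101852, limma adjusted p = 0.0007071) and 1.58 ± 0.12 (A_51_P431087, limma adjusted p = 9.283e-06) in log2 ratio, and were at least 4.074-fold and 3.102-fold higher in Aquantile Cy5. On A_52_P101852 the ratio was 0.56, 1.33 and 0.91 in the TIC fraction and -0.43, -0.47 and -0.39 in day 10 blood. Cy5 alone gave 2.65 ± 0.34 and 1.47 ± 0.24 (limma adjusted p = 0.0001604 and 0.0006467). Groups did not overlap on either probe or measure. With slide as a block the ratio differences were 2.11 and 1.8, and the Cy5 difference of A_51_P431087 was 1.6 and no longer passed (limma adjusted p = 0.06148).

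The second Dcn probe differed by 0.28 ± 0.1 in log2 ratio (limma adjusted p = 0.03529; at least 1.124-fold in Aquantile Cy5) and by 0.21 ± 0.12 in Cy5 alone (limma adjusted p = 0.1845). This call was lost when the day 0 array of mouse 832 or 834, the day 10 blood array of mouse 833 or 834, or the TIC array of mouse 832 was left out, with limma adjusted p of 0.05202 to 0.1097. It was also lost with slide as a block (0.21, limma adjusted p = 0.3813), with mouse and slide as blocks (limma adjusted p = 0.4846), with the 2 groups alone (limma adjusted p = 0.07511), with median centring (limma adjusted p = 0.2795) and under both other normexp settings (limma adjusted p = 0.05003 and 0.05039). In Agilent processed signals the ratio difference of this probe was larger, at 2.946, and passed (limma adjusted p = 9.096e-06). Its Cy5 difference passed after loess and Aquantile (0.3572, limma adjusted p = 0.0139) and when scaled to the 75th percentile (1.355, limma adjusted p = 0.01328).

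The 3 fibrillar collagens had no direction that held across scales. By the loess-normalised ratio they were lower in the TIC fraction than in day 10 blood, by -1.69 ± 0.17 for Col1a1, -1.66 ± 0.19 for Col1a2 and -1.07 ± 0.23 for Col3a1 (SE, limma adjusted p = 3.803e-05, 0.0001112 and 0.003553), whereas with each array's ratios centred on the median in place of loess they were higher, by 0.79, 1.72 and 1.42 (limma adjusted p = 0.009619, 0.0001779 and 0.01007). In Cy5 alone after quantile normalisation the differences were 0.06 ± 0.15, 0.23 ± 0.27 and 0.54 ± 0.17, of which Col3a1 passed (limma adjusted p = 0.02189), and after loess and Aquantile they were -1.58, -1.5 and -0.97. With slide as a block the loess ratios stood at -1.17, -0.89 and -0.77, and Col3a1 no longer passed (limma adjusted p = 0.2159). Col1a1 and Col3a1 were detected on the 3 TIC arrays and on no day 10 blood array, yet their bound fold was under 1, so none is given. The Col3a1 call in Cy5 alone was lost with slide as a block and when the day 10 blood array of mouse 833 or the TIC array of mouse 832 or 834 was left out (limma adjusted p = 0.06798 to 0.5289).

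Per array, the log2 ratio of Col1a1 was -0.55, -0.58 and -0.43 in day 10 blood and -2.37, -1.92 and -2.34 in the TIC fraction after loess. With median centring the same arrays gave -1.72, -1.68 and -1.75 in day 10 blood and -0.63, -0.71 and -1.44 in the TIC fraction. The groups did not overlap on either scale, and their order was opposite. The median of all tested probes moved from 0.122 under loess to 1.17 under median centring in this comparison, so that Col1a1 at 0.79 lay under that median and Col1a2 and Col3a1 above it. The 10 Col1a1 spots on an array differed by an SD of 0.0911 to 0.242 (log2 ratio), less than these shifts.

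**Figure D2:**
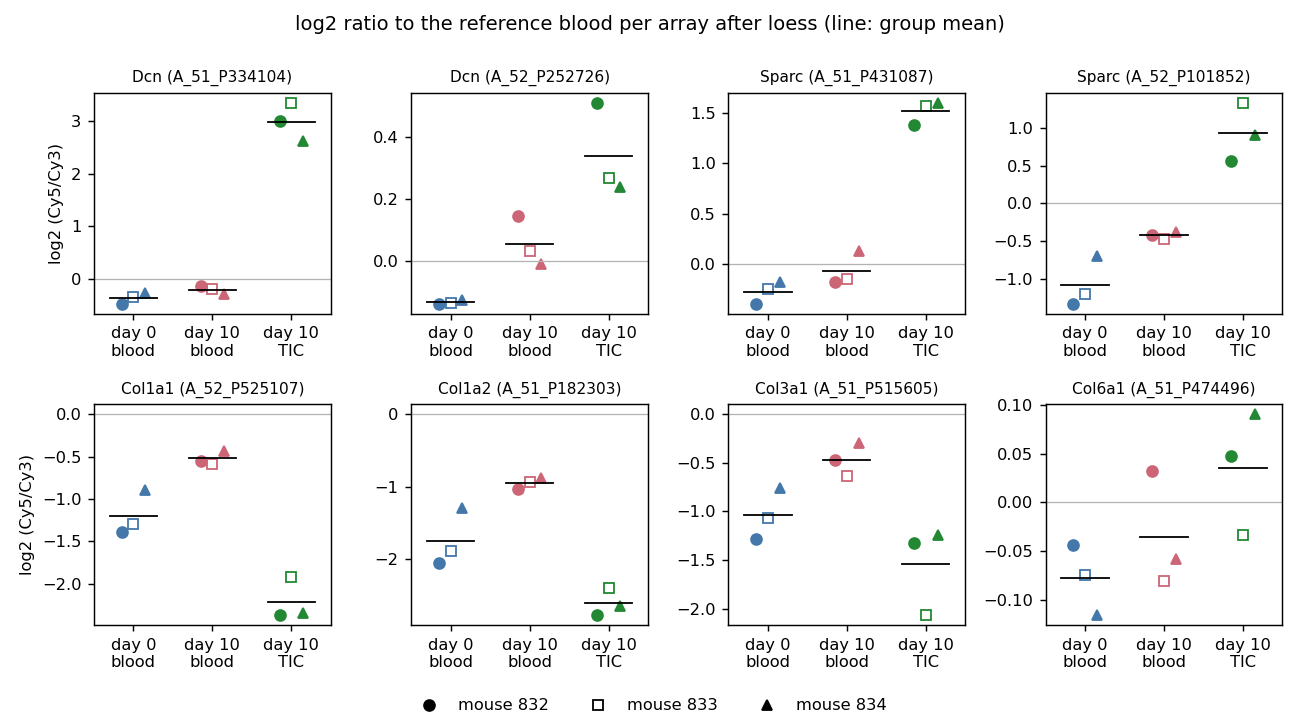
log2 ratio of sample (Cy5) to reference blood (Cy3) after loess for the 8 tested member probes; each symbol is 1 array, its shape the mouse, and the line the mean of the 3 arrays of a group. Dcn and Sparc lie higher in the TIC fraction than in both blood groups, while Col1a1 and Col1a2 lie lower on this scale and higher with median centring. Col3a1 is lower than day 10 blood on this scale and also higher with median centring. Against day 10 blood the median of all tested probes was 1.17 with median centring, and Col1a1 lay under it.

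Col6a1 differed by 0.07 ± 0.08 in log2 ratio and 0.17 ± 0.13 in Cy5 alone (limma adjusted p = 0.476 and 0.2772), and at least 1.006-fold in Aquantile Cy5. The groups overlapped in log2 ratio, and the difference passed on neither measure.

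By count, 4 member probes of 2 genes were higher, 3 probes of 3 genes lower and 1 not called in log2 ratio, with a median of 0.18. Of all tested probes 65.8% were called in this comparison, 35.8% higher and 30% lower, with a median difference of 0.12, so being called is common here. With median centring 6 member probes were higher and none lower, beside 70.5% and 2.8% of all probes; with the authors' deposited log ratios the counts were 4 and 0, beside 49% and 23.3%. In Cy5 alone, 4 were higher (Dcn A_51_P334104, both Sparc probes and Col3a1) and none lower, with a median of 0.39, beside 33.8% and 19.9% of all probes (53.7% in either direction) and a median of 0.21. With both mouse and slide as blocks, 2 member probes were higher and none lower in log2 ratio.

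**Figure D3:**
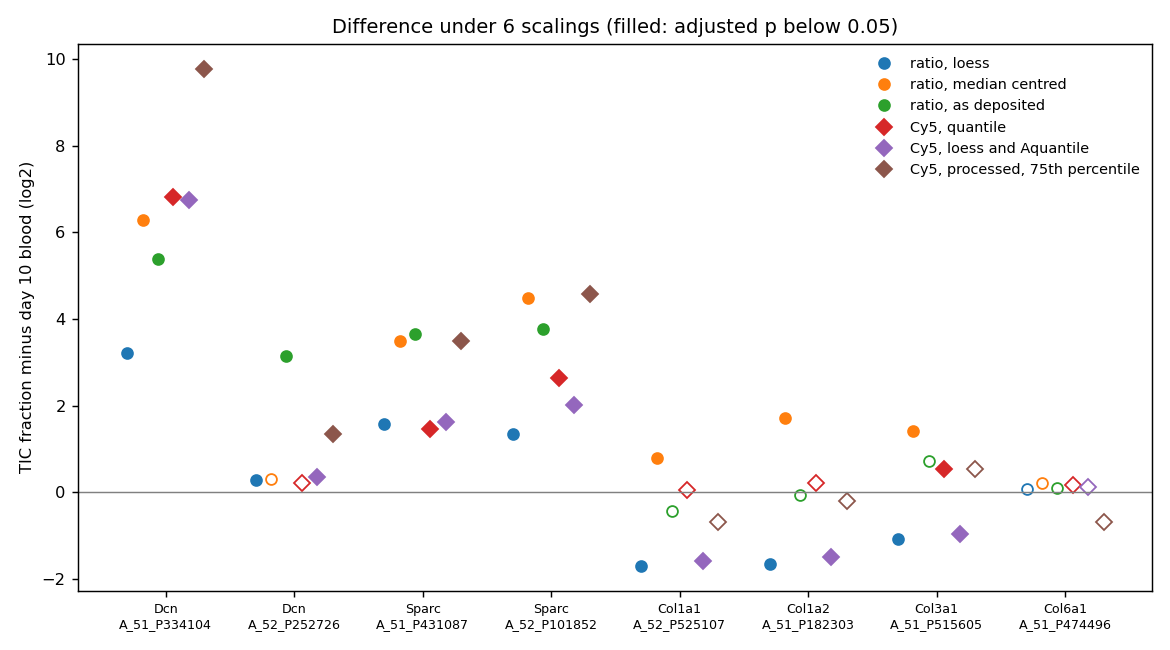
Difference between the TIC fraction and day 10 blood (log2) for the 8 tested member probes under 6 scalings; circles are ratios, diamonds Cy5 alone, and filled symbols have a limma adjusted p below 0.05. Dcn probe A_51_P334104 and both Sparc probes are above 0 under each of the 6, whereas Col1a1, Col1a2 and Col3a1 lie between -1.69 and 1.72 and change sign.

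Against day 0 blood, Dcn and Sparc rose again. These comparisons share the TIC arrays with those above and are not independent of them, and the same limit of the filter holds. Dcn probe A_51_P334104 rose by 3.36 ± 0.17 in log2 ratio and 6.69 ± 0.16 in Cy5 alone (limma adjusted p = 2.702e-06 and 1.385e-08); 1 day 0 array, of the 3, had it above background. The second Dcn probe rose by 0.47 ± 0.1 and 0.35 ± 0.12 (limma adjusted p = 0.003806 and 0.04351; at least 1.158-fold in Aquantile Cy5), and the latter call was lost with mouse or slide as a block (limma adjusted p = 0.06039 and 0.2701) and when any day 0 array or the TIC array of mouse 832 or 834 was left out (limma adjusted p = 0.08234 to 0.18). The ratio call was lost with mouse and slide as blocks (limma adjusted p = 0.09385) and with median centring (limma adjusted p = 0.08628). Sparc rose by 2.01 ± 0.22 (A_52_P101852) and 1.79 ± 0.12 (A_51_P431087) in log2 ratio, with limma adjusted p of 8.682e-05 and 8.25e-06. They were at least 5.776-fold and 3.621-fold higher in Aquantile Cy5. In Cy5 alone the Sparc differences were 2.72 ± 0.34 and 1.74 ± 0.24 (limma adjusted p = 0.0002206 and 0.0003723).

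On slide 2, which held 2 arrays of each of these groups, the ratio difference was 3.4 for Dcn A_51_P334104, 2.39 and 1.91 for Sparc A_52_P101852 and A_51_P431087, -0.79 for Col1a1, -0.55 for Col1a2 and -0.48 for Col3a1. Dcn and Sparc were thus about as high within that slide as over all arrays. The collagens differed by -1.02 ± 0.17 (Col1a1), -0.86 ± 0.19 (Col1a2) and -0.51 ± 0.23 (Col3a1) over all arrays by the loess ratio (limma adjusted p = 0.0008808, 0.00492 and 0.08441), but by 0.82, 1.7 and 1.43 with median centring and 1.17, 0.99 and 1.74 in the authors' deposited log ratios. With mouse as a block Col3a1 passed by the loess ratio (limma adjusted p = 0.04766). In Cy5 alone only Col3a1 of the 3 differed by the test, at 0.61 ± 0.17 (limma adjusted p = 0.01549), and it failed with slide as a block (limma adjusted p = 0.1543). Col6a1 stood at 0.11 ± 0.08 and 0.25 ± 0.13 (limma adjusted p = 0.2633 and 0.1393).

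In this comparison 4 member probes were higher and 2 lower by the loess ratio, beside 32.9% and 30.7% of all probes (63.6% in either direction). In Cy5 alone 5 were higher and none lower, beside 26.3% and 19.4% (45.8% in either direction). With median centring the ratio counts were 6 higher and none lower, beside 65.3% and 4.99%, and in the deposited log ratios 7 and 0, beside 38.9% and 23.8%. Leaving out the day 0 array of mouse 832 or 834, or the TIC array of mouse 832 or 834, gave 3 Cy5 calls in place of 5.

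Between the blood samples no member probe was called. In log2 ratio the differences of day 10 from day 0 blood were 0.8 ± 0.19 for Col1a2, 0.68 ± 0.17 for Col1a1, 0.66 ± 0.22 for Sparc A_52_P101852 and 0.57 ± 0.23 for Col3a1 (limma adjusted p = 0.1397, 0.1435, 0.2396 and 0.33). The other 4 probes lay between 0.04 and 0.21. Each day 10 ratio lay above each day 0 ratio for the 4 named probes and for Sparc A_51_P431087 and Dcn A_52_P252726. The share of all probes showing this was not counted. In scanned Cy5, Sparc A_52_P101852 and Col6a1 went the other way, with each day 10 array below each day 0 array. Only 0.06% of all probes were called in this comparison (0.04% higher, 0.02% lower), and 3.77% in Cy5 alone (1.68% higher, 2.09% lower), where the 8 member differences ran from -0.13 to 0.29. Without the TIC array of mouse 833, which enters only through the shared estimate of spread, Col1a2, Col1a1, Sparc A_52_P101852 and Col3a1 passed in log2 ratio (limma adjusted p = 0.02116 to 0.04971). With median centring the differences of the 4 named probes shrank, to -0.02 for Col1a2, 0.03 for Col1a1, 0.13 for Sparc A_52_P101852 and 0.007 for Col3a1. On slide 3, with 3 day 10 arrays and 1 day 0 array, the ratio differences were 0.35 for Col1a2, 0.38 for Col1a1, 0.28 for Sparc A_52_P101852 and 0.29 for Col3a1. Apart from Col1a2, these probes counted as detected on no blood array, so the values rest on signal at or near the local background. For Col1a1, 3 of the 10 spots carried the flag on the day 10 blood array of mouse 833.

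The cell markers moved in the same comparisons. By Cy5 alone on the linear scale, the summed level of the fibroblast and pericyte list ran from 981 to 1360 over the TIC arrays, against 2531 to 3724 at day 0 and 4305 to 4904 at day 10 in blood, so the sum was lower although more of its genes were detected. In raw intensity above local background the same sum ran from 2190 to 4301 on the TIC arrays, and in blood from 837 to 2531 at day 0 and from 679 to 1024 at day 10. The summed hepatoma and hepatocyte markers ran from 10720 to 49130 on the TIC arrays, and in blood from 656 to 976 at day 0 and from 785 to 988 at day 10. The summed platelet markers ran from 608 to 753 in the TIC fraction against 12175 to 18138 at day 0 and 15764 to 28148 at day 10 in blood. The summed macrophage markers ran from 2476 to 6561 in the TIC fraction and 910.5 to 1123.5 over the blood arrays. The endothelial sums lay between 440 and 551, and the erythroid sums between 982 and 1180 in the TIC fraction and between 69278 and 86551 in blood. The skin, muscle and fat sums lay between 540 and 948 over all arrays. In raw intensity above local background, the skin, muscle and fat sums ran from 263.7 to 2258.5 on the TIC arrays and 22.66 to 249.2 on the blood arrays, and the endothelial sums from 111.1 to 340.8 and 21.68 to 87.56. The part of each cell type in the differences of Dcn, Sparc and the collagens was not tested.

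Across the 9 arrays the members fell into sets with like profiles of log2 ratio, given here as a description, since the 3 arrays of a group share their source. Col1a1 and Col1a2 correlated at 0.99, a level near which many other genes also lay, and each correlated with Col3a1 at 0.81 and 0.84. Dcn probe A_51_P334104 correlated with the Sparc probes at 0.98 and 0.93. The collagens ran against that Dcn probe, at -0.85, -0.8 and -0.74 for Col1a1, Col1a2 and Col3a1, on the loess ratio, whose direction for these 3 depends on scaling. Among other named genes, those closest to Dcn were Rhox5, Myof and Itih2 (0.9994, 0.9979 and 0.9974), with 673 genes above 0.95. Those closest to Sparc were Dut, Arl4c and Prdx6b (0.9891, 0.9848 and 0.9832), with 46 genes above 0.95. Dnmt1, Ube2z and Wipi1 were closest to Col1a1 (0.9962 to 0.9945), Pkn2, Cav1 and Klhl25 to Col1a2 (0.9915 to 0.9889), and Trim12a, Cmc4 and Zfand6 to Col3a1 (0.9919 to 0.9864). Above 0.95 lay 572 genes for Col1a1, 174 for Col1a2 and 29 for Col3a1. Zfp867, Rgs5 and Reep4 were closest to Col6a1 (0.9431 to 0.9228), for which no gene exceeded 0.95.

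The other genes of the matrix were taken from 7 lists with 78 genes, of which 77 were on the array and 55 were tested. These 55 passed the same filter, which a gene bright only in the TIC fraction can pass. Those given a bound below were detected on no day 10 blood array. How many passed only through the TIC arrays was not counted, so the higher calls may partly follow from the filter. Against day 10 blood, 26 were higher and 16 lower in log2 ratio (47.3% and 29.1% of those tested), beside 34.7% and 33.3% (68% in either direction) of all 14253 genes tested. In Cy5 alone 23 were higher and 9 lower (41.8% and 16.4%), beside 35.1% and 23.2% (58.2% in either direction) of all genes. With median centring the counts were 39 and 2, beside 70.5% and 2.8% of all probes, whose median there was 1.17. Values with median centring in the list results below are to be read beside that median. Against day 0 blood 29 were higher and 14 lower in log2 ratio and 24 and 7 in Cy5 alone, beside 32.1% and 33.9% (66% in either direction), and 27.4% and 22.6% (50.1% in either direction), of all genes. Between the blood samples none was called in log2 ratio, beside 0.0561% of all genes (0.0421% higher, 0.014% lower), and 1, higher at day 10, in Cy5 alone, beside 4.06% (1.72% higher, 2.34% lower). With slide as a block fewer list genes passed against day 10 blood, for example 2 in place of 6 collagens and 3 in place of 5 basement membrane genes higher in log2 ratio.

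Among the other collagens, 6 of 12 tested were higher and 4 lower in log2 ratio, with a list median of 0.28, and 5 and 3 in Cy5 alone. Col18a1, a basement membrane collagen, rose by 2.14 ± 0.19 (at least 4.636-fold in Aquantile Cy5), and Col8a1 by 1.11 ± 0.2 (at least 2.564-fold in Aquantile Cy5). Col4a1 and Col16a1 rose by 0.77 ± 0.18 and 0.77 ± 0.16 in Cy5 alone. Col6a2, the partner chain of Col6a1, fell by 3.83 ± 0.27 in log2 ratio and by 2.34 ± 0.25 in Cy5 alone, and was detected on all 3 day 10 blood arrays and on 2 TIC arrays. It kept its direction with median centring. Its difference from Col6a1 was not tested. Col2a1 was lower by -1.98 ± 0.15 in ratio and -1.9 ± 0.2 in Cy5 alone. With median centring it stood at 0.61, under the median of all tested probes on that scale (1.17).

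Of 13 tested enzymes and chaperones of collagen synthesis, 6 were higher and none lower in Cy5 alone. Pcolce, which enhances removal of the procollagen C-propeptide, rose by 4.44 ± 0.44 in Cy5 alone and 1.97 ± 0.28 in ratio (at least 20.43-fold in Aquantile Cy5). Ppib, the endoplasmic reticulum cyclophilin that aids collagen folding, rose by 2.7 ± 0.2 in Cy5 alone and 2 ± 0.16 in ratio. Bmp1, the procollagen C-proteinase, rose by 1.24 ± 0.1 in ratio (at least 2.39-fold in Aquantile Cy5), and P4ha2, a subunit of prolyl 4-hydroxylase, by 1.22 ± 0.11 (at least 2.23-fold in Aquantile Cy5). Crtap, part of the prolyl 3-hydroxylation complex, was lower by -0.92 ± 0.15 in ratio and higher by 2.24 with median centring. By ratio 6 of the 13 were higher and 1 lower.

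Of 3 tested leucine-rich proteoglycans, the family of Dcn and Lum, none was higher and 2 were lower on both measures. Bgn (biglycan) differed by -1.57 ± 0.14 in ratio and Fmod (fibromodulin) by -1.21 ± 0.16, but with median centring they stood at 0.3 and 0.27, and neither passed there. In Cy5 alone they fell by 1.04 ± 0.22 and 1.14 ± 0.22.

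Of 9 tested matricellular and fibre proteins, 4 were higher and 4 lower in ratio, and 5 and 2 in Cy5 alone. Fn1 (fibronectin) rose by 1.75 ± 0.13 in ratio and 2.49 ± 0.25 in Cy5 alone (at least 6.887-fold in Aquantile Cy5), and Ccn2 by 1.47 ± 0.21 and 1.16 ± 0.2 (at least 2.57-fold in Aquantile Cy5). Spp1 (osteopontin) rose by 2.16 ± 0.22 in Cy5 alone and stood at 0.82 ± 0.35 in ratio, which did not pass. Tgfbi, Thbs1 and Mfap2 differed by -2.25 ± 0.41, -1.4 ± 0.21 and -0.7 ± 0.15 in ratio, but by 2.02, 1.33 and 0.07 with median centring; in Cy5 alone Tgfbi fell by 1.73 ± 0.29 and Mfap2 by 0.71 ± 0.24. The Cy5 call of Mfap2 was lost in 7 settings: slide as a block, no filter, and leaving out the day 10 blood array of mouse 832 or 833 or any TIC array.

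Of 7 tested basement membrane genes, 5 were higher and none lower in ratio, and 4 and none in Cy5 alone. The laminin chains Lama5 and Lamb1 rose by 2.57 ± 0.17 (at least 5.957-fold in Aquantile Cy5) and 0.95 ± 0.11 (at least 1.795-fold in Aquantile Cy5) in ratio.

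Of 5 tested collagen receptors, 2 were higher and 2 lower in ratio, and 2 and 1 in Cy5 alone. The higher count in Cy5 alone moved in 8 settings, among them mouse as a block, where it was 1. The Cy5 call of Ddr2 was lost in 7 settings. The discoidin domain receptors Ddr1 and Ddr2, which are collagen-binding kinases, rose by 1.47 ± 0.17 (at least 2.668-fold in Aquantile Cy5) and 0.97 ± 0.19. Gp6, the collagen receptor of platelets, fell by 4.12 ± 0.21 in ratio and 2.7 ± 0.16 in Cy5 alone; the summed platelet markers, a list that holds Gp6, were also lower. Gp6 was also the only list gene called between the blood samples, 0.68 ± 0.16 higher at day 10 in Cy5 alone (limma adjusted p = 0.04928), and its ratio difference of 0.68 ± 0.21 did not pass (limma adjusted p = 0.2204). The Cy5 call was lost in 14 settings, among them mouse as a block, slide as a block and leaving out any 1 array except the day 10 blood or the TIC array of mouse 833. Itgb1 was lower by -0.66 ± 0.12 in ratio and higher by 1.94 with median centring.

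Of 6 genes of TGF-beta and PDGF signalling, 3 were higher and 3 lower in ratio, and 1 and 1 in Cy5 alone. Pdgfa, a mitogen of fibroblasts, rose by 1.26 ± 0.26 in ratio and 1.26 ± 0.22 in Cy5 alone. Tgfbr1 and Pdgfb rose by 0.69 ± 0.11 and 0.53 ± 0.1 in ratio and did not pass in Cy5 alone. Tgfb1 and Tgfbr2 differed by -1.15 ± 0.17 and -1.3 ± 0.23 in ratio and by 1.51 and 2.29 with median centring; Tgfbr2 fell by 0.62 ± 0.2 in Cy5 alone, a call lost in 6 settings: slide as a block, scaling to the 75th percentile, and leaving out the day 10 blood array of mouse 832 or 833 or the TIC array of mouse 832 or 834.

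**Figure D4:**
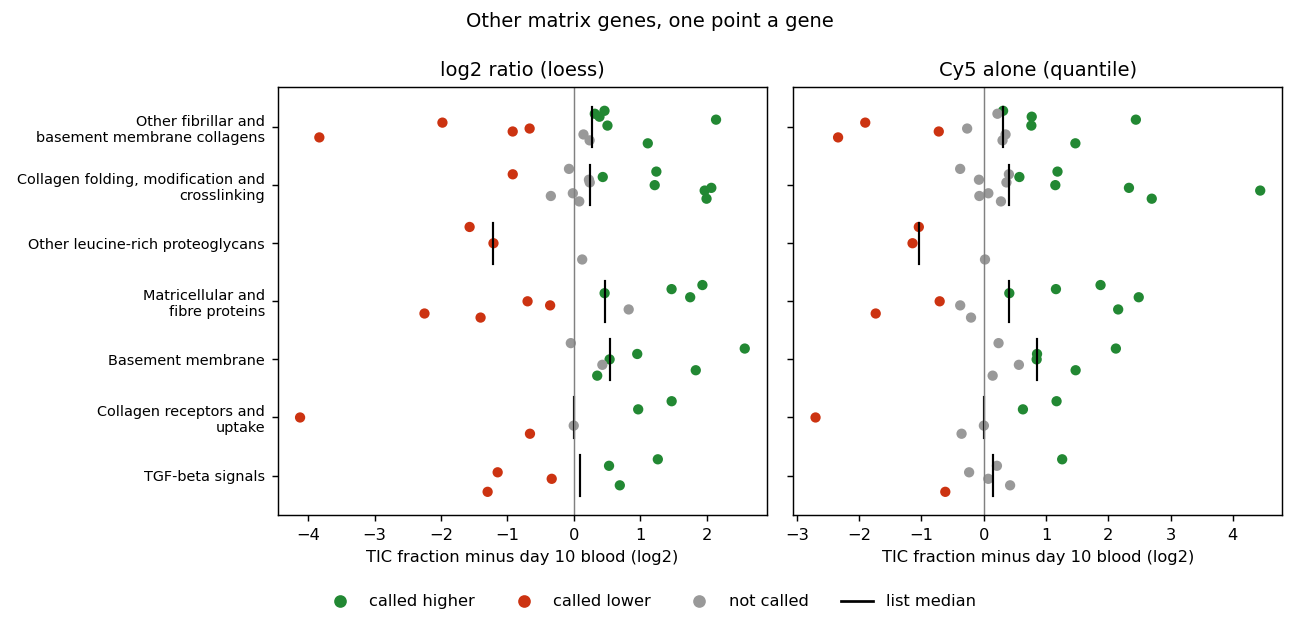
Difference between the TIC fraction and day 10 blood (log2, SE not shown) of the 55 tested genes of 7 matrix lists, by loess ratio (left) and quantile-normalised Cy5 alone (right); each point is 1 gene, coloured by limma's call, and the black line is the list median. Basement membrane genes hold 5 higher and none lower of 7 on the left. Many lower points of the left panel, among them Tgfbi, Bgn and Col2a1 but not Gp6 or Col6a2, lie above 0 with median centring. On that scale the median of all tested probes was 1.17, and Bgn and Col2a1 lay under it.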

How the data were processed

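Expression was measured on 9 Agilent two-colour arrays of 41174 probes in 3 groups of 3. The authors deposited the scanner tables, whose spot intensity values (mean spot and median local background per channel) were used, and a table of log10 ratios of Cy5 over Cy3, identical to the log10 ratio column of the scanner tables. Signals were extracted with Agilent Feature Extraction, version 10.5.1.1 per the file headers and 9.1.3.1 per the submitters' processing notes.

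Intensities were corrected with normexp (offset 50), log2 ratios normalised by loess within arrays, and log2 Cy5 quantile-normalised over arrays, with limma 3.58.1 in R 4.3.3; these log2 values were computed from the deposited intensity values. Spots with non-uniform background (0 to 103 an array) and outlier spots were left out, replicate spots averaged, and control spots given no weight. Tested were probes with a value on all arrays that 3 or more arrays showed well above background in Cy5 (19995 probes, 14253 genes), in 1 fit of all 9 arrays with group as the factor and 6 residual degrees of freedom. Normalisation assumes that most probes are alike between tissues. The fit was run on simulated noise with known changes put into a small set of probes. That run did not test the normalisation, the filter or the slides. Probes were named by accession (23374), the file's own name (8148), symbol (6733) or synonym (2919) against a RefSeq table; a Postn probe came through a synonym.

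Same-numbered samples come from 1 mouse. Deviations of same-mouse arrays correlated at 0.184, 0.318 and 0.24 between day 0 and day 10 blood and between -0.06 and 0.06 with the TIC fraction. The main fit holds no mouse term. Its p-values rest on the spread among the 3 arrays within each group, in which mouse, slide and array cannot be told apart.

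The members and lists were chosen with earlier results of these data known. From each list, up to 2 higher and 2 lower called genes with the smallest p per comparison were named, the brightest probe standing for a gene; likeness is Pearson's correlation of the ratio over 9 arrays. The alternatives tried are given at the end.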

Additional observations from a re-analysis of the deposited data

How the results depend on the processing

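Dcn A_51_P334104 and both Sparc probes kept their direction against both blood groups under each alternative run; of these, Sparc A_51_P431087 lost its call against day 10 blood with slide as a block (Cy5 alone) and with mouse and slide blocks (ratio, limma adjusted p = 0.05153). Low signal over background limits the members: apart from Col1a2, no tested member probe counted as detected on any day 10 blood array. The filter for probes above background on all 9 arrays kept no member probe. The replicate block by mouse alone changed 2 member calls, both against day 0 blood: Col3a1 passed in log2 ratio and Dcn A_52_P252726 was lost in Cy5 alone, so that 3 in place of 2 were lower and 4 in place of 5 higher. Among other matrix genes, the ratio calls of Pdgfa, Tgfb1, Tgfbr2, Thbs1 and Itgb1 against day 10 blood were lost with slide as a block, with mouse and slide blocks, in processed signals and in the deposited log ratio.

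Counts of called member probes moved as follows. Against day 10 blood by ratio, lower counts were 5 with no filter and 0 with mouse and slide blocks, Agilent processed signals, the deposited log ratio and median centring, and higher counts 2 with mouse and slide blocks and with the brightest probe of each gene (a setting that leaves fewer probes). In Cy5 alone the higher count was 2 with slide as a block, and the lower count 3 after loess and Aquantile. Against day 0 blood by ratio, lower counts were 0 with mouse and slide blocks, processed signals, the deposited log ratio and median centring, and higher counts 7 with processed signals and the deposited log ratio and 2 with the brightest probe. In Cy5 alone the higher count was 3 with slide as a block and 3 to 6 with 1 array left out, and the lower count 2 after loess and Aquantile. Between blood samples the ratio gave 1 higher probe with only the 2 groups compared and 0 to 4 with 1 array left out. Apart from the smaller sets of probes or arrays, the cause was not tested.

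Directions reversed as follows. Against day 10 blood by ratio, Col3a1 stood at 0.73 in processed signals and 0.73 in the deposited log ratio. Median centring gave Col1a1 0.79, Col1a2 1.72, Col3a1 1.42, Crtap 2.24, Fmod 0.27, Tgfbi 2.02, Mfap2 0.0652, Itgb1 1.94, Tgfb1 1.51, Tgfbr2 2.29, Bgn 0.297, Col2a1 0.61 and Thbs1 1.33. On that scale the median of all tested probes was 1.17. Col1a1, Fmod, Mfap2, Bgn and Col2a1 lay under it, and the others above it. In Cy5 alone, loess and Aquantile gave Col1a1 -1.58, Col1a2 -1.5 and Col3a1 -0.97, the 75th percentile Col1a1 -0.68, Col1a2 -0.19 and Col6a1 -0.68, and slide as a block Col1a1 -0.0197 and Col1a2 -0.00191. With 1 array left out, Cy5 alone ran from -0.0072 to 0.195 for Col1a1, -0.0862 to 0.55 for Col1a2, -0.55 to 0.00012 for Tgfb1 and -0.52 to 0.0324 for Thbs1. Against day 0 blood by ratio, Col1a1, Col1a2 and Col3a1 stood at 1.17, 0.99 and 1.74 in processed signals and the deposited log ratio, and at 0.82, 1.7 and 1.43 with median centring; in Cy5 alone after loess and Aquantile they stood at -0.906, -0.804 and -0.405. Between blood samples by ratio, Dcn A_51_P334104 stood at -0.17 with mouse and slide blocks, -0.52 in processed signals and the deposited log ratio and -0.0402 with median centring, Dcn A_52_P252726 at -0.33 in processed signals, and Col1a2 at -0.0246 with median centring. In Cy5 alone, Dcn A_51_P334104 stood at 0.0144 with slide as a block and 0.15 after loess and Aquantile, and Sparc A_52_P101852 at -0.0014 with slide as a block; with 1 array left out the ranges were -0.0084 to 0.13 for Col6a1, -0.24 to 0.39 for Col1a2, -0.0363 to 0.212 for Sparc A_52_P101852 and -0.0166 to 0.432 for Sparc A_51_P431087.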
